A study of Mus musculus with 2 samples.

Results

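The liver supplies most of the protease inhibitors of blood plasma, and 9 of their genes were followed here in the newborn mouse. They are the 5 near-identical Serpina1 copies (Serpina1a, Serpina1b, Serpina1c, Serpina1d and Serpina1e), which encode alpha-1-antitrypsin, the 3 Serpina3 genes Serpina3k, Serpina3m and Serpina3n, which are mouse counterparts of alpha-1-antichymotrypsin, and Serpina10, which encodes the protein Z-dependent protease inhibitor. Members were taken by gene symbol, giving 9 of the 43346 genes in the deposited tables, and all 9 were listed for both libraries. Because the Serpina1 copies share much of their sequence, each copy is given alone and as part of their sum.

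The tables describe mice of the B6NCrl strain on postnatal day 0. The labels give 1 group of 2 libraries, made from the whole liver of pup 1 (replicate 1) and from that of pup 3 (replicate 2), with no genetic change and with no treatment beyond an antibody entry reading Control. The input was 13 pg of RNA over 200 nt in size per library, labelled as 1 cell-equivalent, and spike-in RNAs were added, so a value averages the cells of an organ although the RNA amount is that of a cell. Both livers carry the same donor entry, and the spread between libraries may be biological or technical; with no contrast in the labels no test was made, values are mean ± SD over n = 2, and the ratio of pup 3 over pup 1 is a description of these libraries.

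Serpins inhibit proteases by offering an exposed reactive centre loop as bait: the protease cuts the loop at a bond after a residue called P1, the loop inserts into the body of the serpin, and the protease stays trapped. Alpha-1-antitrypsin is secreted by hepatocytes and chiefly restrains neutrophil elastase; humans carry a single such gene, whereas the mouse has several copies known for their different loops. Alpha-1-antichymotrypsin and its mouse relatives act on chymotrypsin-like proteases, granzymes or kallikreins and belong to the acute phase response, and the protein Z-dependent inhibitor acts on the activated coagulation factors X and XI.

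The loop decides which protease is caught and varies more between the copies than the rest of the coding sequence, so its coding sequence is shown for the 5 Serpina1 genes, read 5′ to 3′ from the GENCODE transcripts. Each stretch holds 81 bases, coding bases 1087 to 1167 of 1239, from the hinge of the loop to the end of the strand that follows it. Capitals mark the positions at which the 5 copies are not all the same.
Serpina1a: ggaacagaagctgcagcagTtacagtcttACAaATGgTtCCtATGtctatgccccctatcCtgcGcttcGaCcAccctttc
Serpina1b: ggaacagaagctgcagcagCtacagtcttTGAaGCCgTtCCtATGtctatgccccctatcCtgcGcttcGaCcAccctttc
Serpina1c: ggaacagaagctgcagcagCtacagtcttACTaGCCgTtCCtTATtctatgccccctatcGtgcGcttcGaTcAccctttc
Serpina1d: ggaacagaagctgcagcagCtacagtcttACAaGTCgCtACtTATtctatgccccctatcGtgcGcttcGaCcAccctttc
Serpina1e: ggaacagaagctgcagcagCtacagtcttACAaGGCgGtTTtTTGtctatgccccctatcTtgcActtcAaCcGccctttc
In GRCm38 these stretches lie on the minus strand, each within a single coding exon, at chr12:103853750-103853830 (Serpina1a), chr12:103728317-103728397 (Serpina1b), chr12:103895087-103895167 (Serpina1c), chr12:103763755-103763835 (Serpina1d) and chr12:103947093-103947173 (Serpina1e). The copies varied at 18 of the 81 positions (22.2%), against 68 of 1158 positions (5.87%) in the rest of the coding sequence. The codon for P1 is codon 15 of each printed stretch. It reads ATG in Serpina1a and Serpina1b, TAT in Serpina1c and Serpina1d, and TTG in Serpina1e. Serpina1c and Serpina1d had the fewest differing bases in the stretch, 5 of 81, and Serpina1e differed from each other copy at 10 to 12.

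The loops of the Serpina3 members are shown because they differ from each other much more than the Serpina1 loops do, in length as well as in letters. Capitals mark the positions at which Serpina3k, Serpina3m and Serpina3n are not all the same.
Serpina3k: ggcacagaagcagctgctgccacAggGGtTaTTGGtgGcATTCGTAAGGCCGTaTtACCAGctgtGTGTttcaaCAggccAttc
Serpina3m: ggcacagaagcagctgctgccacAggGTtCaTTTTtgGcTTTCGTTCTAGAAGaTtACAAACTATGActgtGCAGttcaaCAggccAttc
Serpina3n: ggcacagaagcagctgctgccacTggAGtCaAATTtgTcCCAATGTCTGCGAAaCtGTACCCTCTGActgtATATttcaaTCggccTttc
These stretches lie on the plus strand at chr12:104345269-104345352, chr12:104393769-104393858 and chr12:104413448-104413537, and hold 84, 90 and 90 bases. Of 90 aligned positions 42 varied (46.7%), and the hinge at the 5′ end was the same in all 3 genes. Over the whole coding sequence, Serpina1 pairs were 96.3% to 98.5% identical (19 to 46 differing bases of 1239, closest for Serpina1a with Serpina1c), Serpina3 pairs were 82.9% to 91.7% identical, and Serpina10 was 47.5% to 51.2% identical to the other 8.

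The libraries summed to 56959836 expected counts (pup 1) and 35973980 (pup 3), of which spike-ins made 3.76% and 3.28%. Expected counts are estimated reads per gene, with reads of several possible origins divided among them. Levels are given as TPM, transcript shares corrected for length, with spike-ins removed and the rest rescaled to sum to 1000000; values given in pairs are pup 1 and then pup 3. A count of 0 allows up to 0.0547 CPM in pup 1 and 0.0862 CPM in pup 3, CPM being counts scaled to the same total without the length correction, from 3 counts. The libraries carried no molecular identifiers that the tables show, so such limits cover counting error only. The hepatocyte markers were present in both libraries, with 6 of 6 (Alb, Ttr, Apoa1, Ahsg, Trf and Afp) at 1 TPM or more and a summed share of 15.1% in pup 1 and 12.3% in pup 3. Of the 6, 3 were lower in pup 3 (Trf, Ahsg and Apoa1) and 3 higher (Alb, Afp and Ttr), with a median log2 ratio of 0.06.

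The 5 Serpina1 copies together exceeded the other serpins of the newborn liver and made 3.51% of all endogenous TPM in pup 1 and 1.52% in pup 3. Their sum was 35053 TPM in pup 1 against 15182 TPM in pup 3 (25118 ± 14051), from 1868620 and 557963 expected counts. The sum was 2.31-fold lower in pup 3, a log2 ratio of -1.21, which ranged from -1.47 to -1.004 over 8 units and scalings. Counted as 1 entry, the sum held rank 3 among all genes in pup 1, behind Trf and Hba-a2, and rank 9 in pup 3. By mean it fell between Apoa1 (25381 ± 656 TPM), the main protein of high-density lipoprotein, and Alb (16014 ± 2073 TPM), serum albumin.

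Each copy was lower in pup 3 than in pup 1. Serpina1e was the highest copy in both livers, at 13316 and 5590 TPM (9453 ± 5463; 705987 and 206404 expected counts; log2 ratio -1.25). Serpina1b stood at 7274 and 2800 TPM (5037 ± 3164; log2 ratio -1.38), the widest gap of the 5. Serpina1a stood at 6776 and 3157 TPM (4967 ± 2559; log2 ratio -1.10). These copies carry the same P1 codon, and their order was exchanged between the livers, Serpina1b leading in pup 1 and Serpina1a in pup 3. Serpina1d stood at 5449 and 2379 TPM (3914 ± 2170; log2 ratio -1.20). Serpina1c was the lowest copy in both livers, at 2239 and 1256 TPM (1748 ± 695; log2 ratio -0.83), the narrowest gap of the 5. The mean ± SD ranges of neighbouring copies overlapped throughout, while within each liver the order of the copies was the same but for Serpina1a and Serpina1b.

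**Figure D1:**
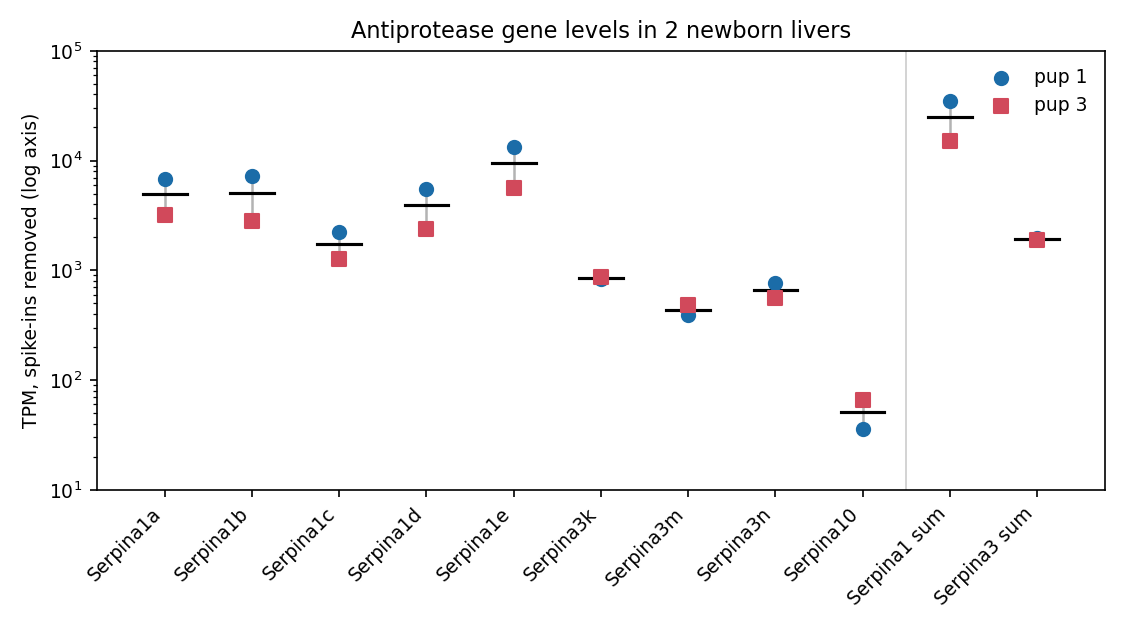
Level of each antiprotease gene and of the Serpina1 and Serpina3 sums in the livers of pup 1 (circles) and pup 3 (squares), in TPM with spike-ins removed on a log axis; the black line is the mean of both libraries and the grey line joins them. All 5 Serpina1 copies lie lower in pup 3, the Serpina3 sum is 1984 and 1905 TPM, and Serpina10 is the lowest gene in both livers.

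The division of the Serpina1 sum among its copies moved far less than the sum itself. Serpina1e made 38.0% of the sum in pup 1 and 36.8% in pup 3, and Serpina1d made 15.5% and 15.7%. Serpina1b made 20.8% and 18.4%, Serpina1a 19.3% and 20.8%, and Serpina1c 6.39% and 8.27%. No share moved by more than 2.31 percentage points, that of Serpina1b. Relative to its own size the share of Serpina1c moved most. The ratio of Serpina1e to Serpina1c was 5.95 in pup 1 and 4.45 in pup 3, a 1.34-fold change, while the sum differed 2.31-fold. Grouped by the P1 codon printed above, the ATG copies (Serpina1a and Serpina1b) made 40.1% and 39.2% of the sum, with 14050 and 5957 TPM. The TTG copy Serpina1e made 38.0% and 36.8%, and the TAT copies (Serpina1c and Serpina1d) made 21.9% and 23.9%, with 7688 and 3635 TPM. The order of the 3 loop classes was the same in both livers.

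**Figure D2:**
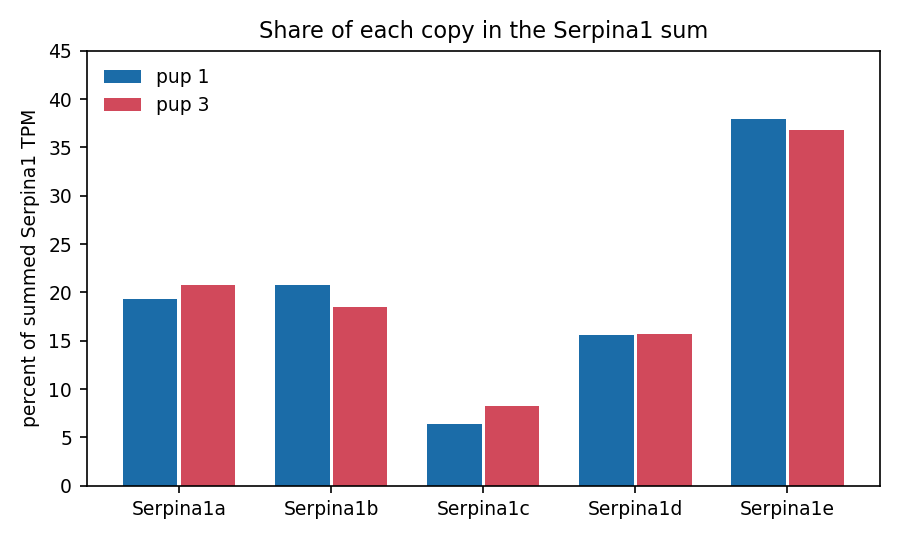
Share of each copy in the summed Serpina1 TPM, in percent, for pup 1 and pup 3; each bar is 1 library. Serpina1e takes 38.0% and 36.8% and Serpina1c 6.39% and 8.27%, and only Serpina1a and Serpina1b exchange places.

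How firmly reads can be given to a copy depends on how much of its transcript is found nowhere else. Read as windows of 100 nt, the length implied by the tables, 81.8% of the main Serpina1e transcript occurred in no other gene, 73.6% of Serpina1b and 70.7% of Serpina1d. Serpina1a and Serpina1c were less distinct, with 39.0% and 41.5% of windows unique. The remaining windows were shared among the copies and with Gm8893, a pseudogene that lies among them (chr12:103817856-103822243) and had 15.1 and 7.59 TPM (723 and 248 expected counts). The deposited posterior SD, a measure of how uncertain the division of reads is, was highest for Serpina1c, at 0.285% of its count in pup 1 and 0.468% in pup 3. That figure holds only the uncertainty of the authors' model and not that of the library. Serpina3k (95.1% unique), Serpina3m (93.9%), Serpina3n (99.8%) and Serpina10 (100%) could be told apart over nearly their whole length.

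**Figure D3:**
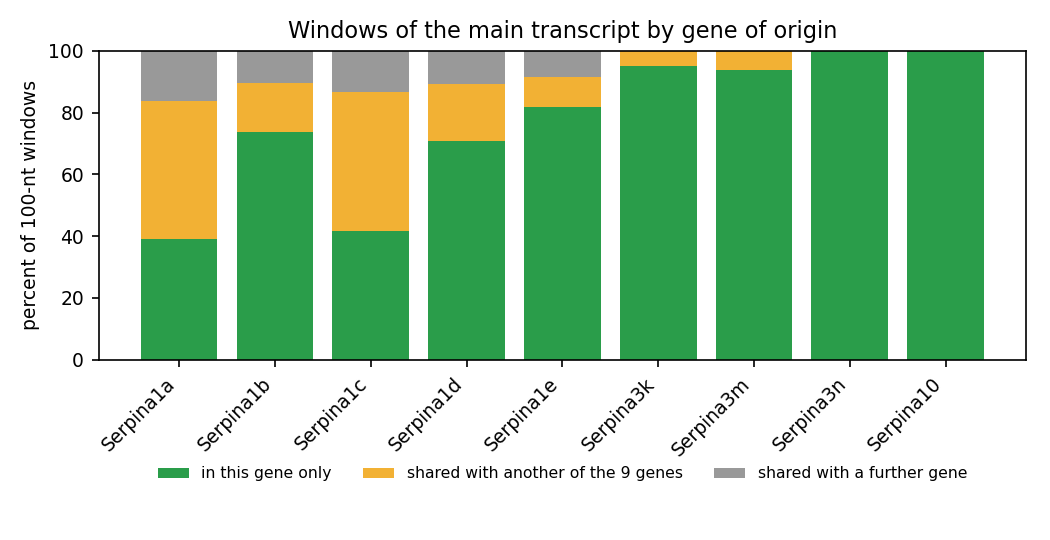
Percent of 100-nt windows of each gene's main transcript that occur in that gene only (green), in another of the 9 genes (orange) or in a further gene (grey). Serpina1a and Serpina1c have the lowest unique shares, 39.0% and 41.5%, and the Serpina3 members and Serpina10 lie at 93.9% or more.

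The Serpina3 genes were less abundant than any Serpina1 copy, and their sum was close in the livers. Together they stood at 1984 and 1905 TPM (1945 ± 55.7; 155890 and 101452 expected counts; log2 ratio -0.06, with no stable direction, since other scalings gave -0.32 to 0.14). Serpina3k, known as contrapsin, was the highest at 835 and 863 TPM (849 ± 19.9; 68228 and 48389 expected counts). Its log2 ratio was 0.05 and ranged from -0.21 to 0.25 over the scalings, so its direction also turned. Serpina3n, an inhibitor of granzyme B and of elastase-like proteases that is strongly induced in inflammation, stood at 758 and 559 TPM (659 ± 141; 62195 and 31484 expected counts; log2 ratio -0.44). Serpina3m stood at 391 and 483 TPM (437 ± 65.0; 25467 and 21579 expected counts; log2 ratio 0.30). Serpina3k made 42.1% and 45.3% of the Serpina3 sum, Serpina3n 38.2% and 29.4%, and Serpina3m 19.7% and 25.4%. Their order was the same in both livers, and the mean ± SD ranges of neighbours did not overlap.

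Serpina10 was the lowest member, at 35.9 and 65.9 TPM (50.9 ± 21.2; 2492 and 3204 expected counts; log2 ratio 0.88). It was the only member whose expected count was larger in pup 3, the library of lower depth. Its level lay below those of its known targets and cofactor: F10, coagulation factor X, at 404 and 396 TPM, F11, coagulation factor XI, at 78.0 and 38.9 TPM, and Proz, protein Z, at 172 and 116 TPM. In pup 3 F11 was the exception, at 38.9 TPM against 65.9 TPM for Serpina10.

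All 9 members were at 1 TPM or more in both libraries, as were 3548 (43.7%) of the 8120 genes whose expected counts averaged 10 or more. Of the members 4 were at least 2-fold lower in pup 3 (Serpina1a, Serpina1b, Serpina1d and Serpina1e), beside 38.5% of the 8120 genes, and 0 were at least 2-fold higher, beside 36%. The share of 4 in 9 is near that background, which is made up mostly of scarce genes: 58.4% of the other genes between 30 and 100 TPM were 2-fold or more apart, and 23% of those between 300 and 1000 TPM. At the level of the Serpina1 copies such gaps were less common. Among the 98 other genes that averaged 1000 TPM or more, 5 were at least 2-fold lower in pup 3 (5.1%) and 6 at least 2-fold higher (6.12%), with a median log2 ratio of 0.0035 and a range of -2.05 to 1.70. The 5 were Gm42418, Gm28661, mt-Co1, Cfb (complement factor B) and Sod1 (superoxide dismutase). Serpina1 copies share reads and a locus, so their ratios are not independent values.

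**Figure D4:**
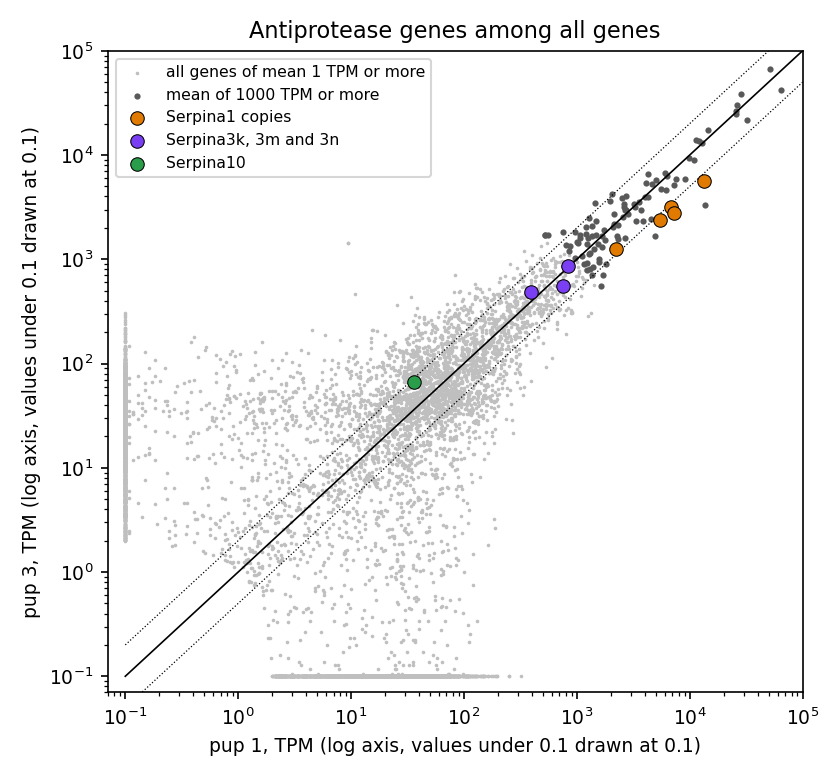
TPM of each gene in pup 1 (x axis) and pup 3 (y axis), both log axes with values under 0.1 drawn at 0.1; the solid line is equality and dotted lines are 2-fold either way. The 5 Serpina1 copies (orange) lie below the solid line among genes of 1000 TPM or more (dark grey), and the Serpina3 members (purple) lie near it.

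Measured against other hepatocyte products of the same library, the Serpina1 sum was also lower in pup 3. It was 2.41 times the Alb level in pup 1 and 0.869 times in pup 3, and 2.91 and 1.12 times that of Afp, the fetal albumin relative. Against Apoa1 the ratio was 1.36 and 0.609. Against Ahsg (fetuin-A) it was 1.09 and 0.693, and against Trf (transferrin) 0.546 and 0.359, since these genes were lower in pup 3 too, at log2 ratios of -0.56 and -0.60. The sum was 17.7 times the Serpina3 sum in pup 1 and 7.97 times in pup 3. Such ratios within a library do not change with its scaling.

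Markers of other liver cells differed between the libraries as well. Neutrophil markers (7 of 7 detected in both) summed to 0.632% and 0.909%, but 4 of the 7 were lower in pup 3 and their median log2 ratio was -0.05; S100a8 (2061 and 4236 TPM) and S100a9 (1272 and 2464 TPM) made most of the higher sum. Erythroid markers (4 of 4, 3 of them higher in pup 3) summed to 5.53% and 6.99%. Macrophage markers (4 of 6) summed to 0.0692% and 0.103%, with Cd68 and Adgre1 at 0 in pup 1, and megakaryocyte markers (2 of 3) to 0.0615% and 0.112%. Endothelial markers (3 of 4, Kdr at 0 in pup 1) summed to 0.0232% and 0.0151%, although Pecam1 had 2.55 and 35.9 TPM. Stellate cell markers (3 of 4) summed to 0.0337% and 0.0174%, and bile duct markers (1 of 4, Krt19 at 0 in pup 1, Sox9 at 0 in pup 3, Epcam at 0 in both) to 0.0115% and 0.0269%. Their part in the Serpina1 difference was not tested. In whole-liver RNA, fewer cells of a type and less RNA per cell cannot be told apart.

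The 9 genes lie in a cluster of 28 clade A serpin genes and pseudogenes on chromosome 12, chr12:103614786-104414329, which spans 800 kb (799.543 kb). The Serpina1 copies fill 231 kb of it, at chr12:103728156-103958975, all on the minus strand, with Serpina10 at the left end of the cluster and the 3 Serpina3 members at the right end, on the plus strand. The 19 others of the cluster include the pseudogenes Serpina4-ps1, Serpina3d-ps, Serpina3e-ps, Serpina3h and Serpina3l-ps. Between and beside the members 17 of the 19 were under 1 TPM in both livers. The exceptions were Serpina11, a secreted liver serpin, with 128 and 534 TPM (log2 ratio 2.06), and Serpina3g, with 66.0 and 0 TPM (3714 and 0 expected counts). Serpina6, which encodes the corticosteroid carrier, and Serpina12, an adipose tissue serpin known as vaspin, were at 0 in both. Serpina11, higher in pup 3, is the next gene of the cluster after Serpina1e, which was lower there. Of 17 listed other clade A serpins, Serpina7, which encodes thyroxine-binding globulin and lies outside the cluster, was the only further gene detected in both livers, at 51.7 and 211 TPM. The annotated Serpina1b gene (chr12:103728156-103830373) spans all of Serpina1d, and that of Serpina3m (chr12:104338486-104394257) spans Serpina3k, on the same strand in both cases.

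**Figure D5:**
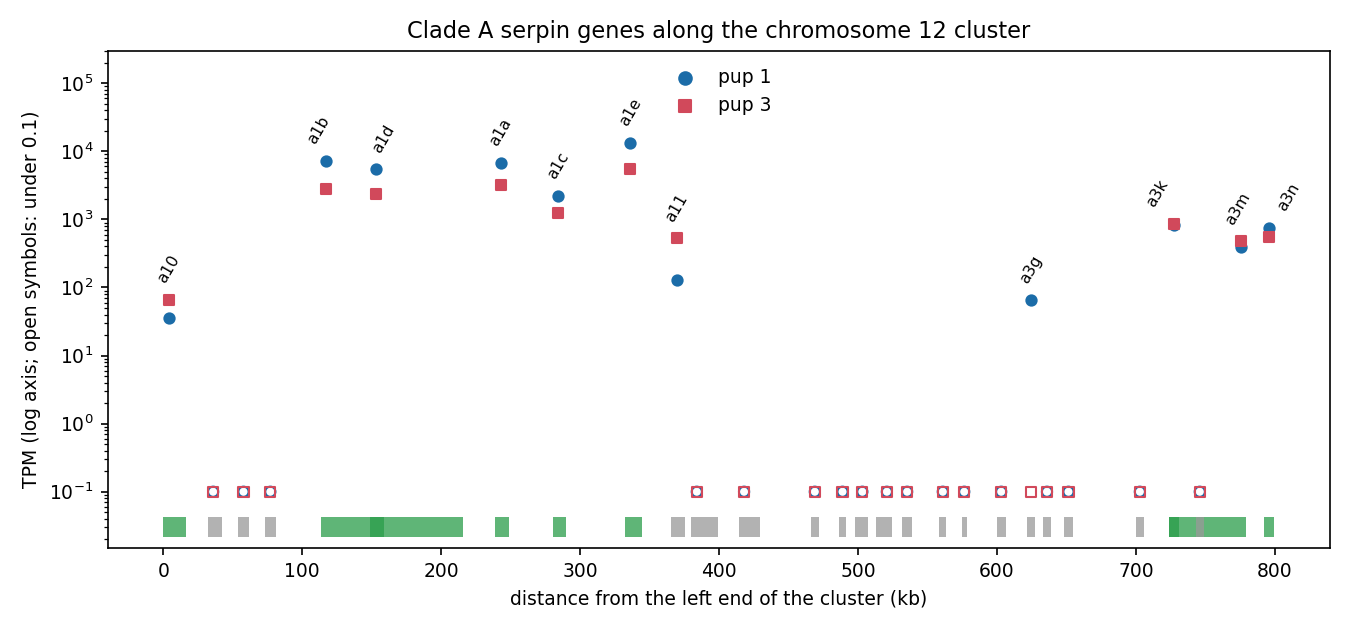
TPM (log axis) of the 28 clade A serpin genes and pseudogenes along the cluster, by distance in kb from its left end, in pup 1 (circles) and pup 3 (squares). Open symbols are values under 0.1, and boxes show gene extents, green for the 9 members and grey for the others. Members stand at both ends and in the left part of the cluster, and of the other genes Serpina11 and, in pup 1, Serpina3g are above 1 TPM.

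Counted over the whole family, 19 of 69 serpin genes (angiotensinogen, Agt, and pseudogenes included) were at 1 TPM or more in both libraries and 46 in neither. The share was 43.7% over the 8120 genes, a set that leaves out genes with few counts. The 9 members held 84.7% of all serpin TPM in pup 1 and 69.9% in pup 3, and the Serpina1 copies alone 80.1% and 61.9%. The other 60 serpin genes summed to 6712 and 7383 TPM. Most of that came from secreted serpins of other clades, of which 6 of 9 listed were detected in both, with 6321 and 6569 TPM. Serpinc1, antithrombin, led them with 2704 and 4047 TPM, followed by Serpinf2, the plasmin inhibitor, with 1350 and 703 TPM and Agt with 1115 and 677 TPM. Serpinf1 (pigment epithelium-derived factor) had 520 and 522 TPM, Serping1 (the C1 inhibitor) 361 and 326 TPM, and Serpind1 (heparin cofactor II) 270 and 294 TPM. None of these 6 was 2-fold apart, beside 23% of the other genes between 300 and 1000 TPM. Of other genes at 1000 TPM or more, 5.1% were at least 2-fold lower in pup 3 and 6.12% at least 2-fold higher, so that count is near the background. Of 9 intracellular or endoplasmic reticulum serpins 2 were detected in both, Serpinb1a (56.0 and 50.4 TPM), a neutrophil elastase inhibitor inside cells, and Serpinh1 (4.99 and 18.7 TPM), the collagen chaperone.

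Among 15 listed proteases and cofactors of these serpins 14 matched a gene and 7 were detected in both. Beside 43.7% of the 8120 genes, that count is near the background. Elane, the neutrophil elastase that alpha-1-antitrypsin inhibits, stood at 331 and 319 TPM, a log2 ratio of -0.05. The log2 ratio of the Serpina1 sum was -1.21, and those of its ATG, TAT and TTG copies were -1.24, -1.08 and -1.25. Which of these copies act on Elane was not tested. Prtn3, proteinase 3, another target, had 1.70 and 84.3 TPM (64 and 1654 expected counts), and Ctsg, cathepsin G, the target of alpha-1-antichymotrypsin, was at 0 in both. F2 (prothrombin) had 1533 and 1411 TPM and Plg (plasminogen) 878 and 1334 TPM. The median log2 ratio of the 7 was -0.05, beside 0.13 over those of the 8120 genes above 0 in both. The 7 were held to 1 TPM in both libraries, so these medians are not like for like.

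Genes for the folding, export and disposal of alpha-1-antitrypsin were mostly present, with 13 of 18 detected in both and 3 in neither, beside 43.7% of the 8120 genes detected in both. Their median log2 ratio was 0.28, beside 0.13. Of the 13, 2 were at least 2-fold lower in pup 3 and 3 at least 2-fold higher, beside 38.5% and 36% of the 8120 genes. The 13 leave out the 2 listed genes detected in 1 library only, whereas the 8120 include such genes, so these shares are not like for like. Hspa5, the chaperone BiP, led with 567 and 689 TPM, followed by Calr (calreticulin) with 204 and 269 TPM and Hsp90b1 with 194 and 266 TPM. The cargo receptor that carries alpha-1-antitrypsin out of the endoplasmic reticulum, Lman1 with its partner Mcfd2, was higher in pup 3, with 43.9 and 269 TPM for Lman1 and 48.5 and 251 TPM for Mcfd2. Surf4, a further cargo receptor, had 107 and 196 TPM. Canx, the membrane-bound lectin chaperone calnexin, was lower in pup 3, with 125 and 22.3 TPM.

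Of 18 regulators of hepatocyte genes and of acute phase signalling, 6 were detected in both libraries, beside 43.7% of the 8120 genes. Il6st, the shared receptor chain of interleukin-6 signalling, had 35.0 and 39.7 TPM and Il1r1, the interleukin-1 receptor, 17.4 and 54.5 TPM. Stat5b had 17.8 and 33.3 TPM. The transcription factor Cebpa was found in pup 1 only (32.5 and 0 TPM; 3438 and 0 expected counts), as was Nr3c1, the glucocorticoid receptor (61.5 and 0 TPM; 8281 and 0 expected counts). Ghr, the growth hormone receptor, had 20.8 and 23.4 TPM. A 0 in a library of 13 pg speaks for what was captured and does not show that a gene was silent.

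Upstream of the transcription start the 5 Serpina1 copies again shared sequence. RefSeq promoters (GRCm38.p6, 250 bases before to 50 after the start) were matched for 6 of the 9 members by symbol: the 5 Serpina1 copies and Serpina3n. Serpina1 promoters were 91.7% to 98.4% identical in pairs and 44.2% to 47.4% identical to that of Serpina3n. The longest run that all 5 copies share has 59 bases and is shown as an example of that likeness. It is printed in lower case throughout, since no position differs.
Serpina1 promoter run: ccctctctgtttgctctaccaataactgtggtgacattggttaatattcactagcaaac
It is read 5′ to 3′ on the minus strand, in Serpina1a at chr12:103863621-103863679, 60 to 2 bases upstream of the start that RefSeq lists. Of RefSeq's 32851 promoters, 5 held it. Counted from RefSeq's starts, the run lies 117 to 59 bases upstream in Serpina1e. In Serpina1d it reaches from 55 bases upstream to just past the start. These distances depend on the annotated start. GENCODE starts Serpina1d at chr12:103773592, and the run, at chr12:103773630-103773688, lies wholly upstream of that start. The GENCODE start of Serpina1a, chr12:103863562, is also further from the run than RefSeq's. Whether the run itself is placed differently between copies was not tested.

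Transcript tables gave 17 transcripts for the 9 genes, of which 12 reached 5% of their gene's TPM in either library. Serpina1c, Serpina1d, Serpina3k and Serpina3n have a single listed transcript. Serpina1a and Serpina1b were nearly all of 1 transcript, with 99.3% and 99.9% for Serpina1a-202 and 99.3% and 99.99% for Serpina1b-201. Serpina1e was divided between Serpina1e-201 (73.6% in pup 1 and 66.7% in pup 3) and Serpina1e-202 (26.4% and 33.3%), which differ in the first exon and in further bases. The first exon has 42 nt at chr12:103956857-103956898 for the former and 242 nt at chr12:103958734-103958975 for the latter. Of the Serpina1e-202 windows of 100 nt, 21.8% were absent from Serpina1e-201. In TPM Serpina1e-201 had 9797 and 3730 (log2 ratio -1.39) and Serpina1e-202 had 3519 and 1859 (log2 ratio -0.92), so both transcripts were lower in pup 3.

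Serpina10 was divided between Serpina10-202 (83.8% and 82.1%) and the longer Serpina10-201 (16.2% and 17.9%). Serpina3m was split nearly evenly by the authors' estimate, with 52.8% and 51.1% for Serpina3m-201 and 47.2% and 48.9% for Serpina3m-202. That split cannot be read from these libraries. The first exons of the 2 transcripts, each of 60 nt, have 0 differing bases although they lie at chr12:104338486-104338545 and chr12:104387164-104387223, and all but 1 of the 1560 windows of Serpina3m-202 also occur in Serpina3m-201. The posterior SD was 42.2% and 39.3% of the count for Serpina3m-201, and 47.1% and 41.2% for Serpina3m-202. The former of these exons is also the first exon of Serpina3k.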

How the data were processed

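RNA from 2 newborn livers was extracted with a mirVana kit and made into SmartSeq libraries, per the labels' protocols. The authors deposited, per gene and per transcript, expected counts, TPM over all features with spike-ins, posterior means with their SD (treated here as a score) and isoform percent, the TPM of a transcript as a percent of its gene. The sources used here do not give the quantifier; the column names are those RSEM writes, and values refer to mm10 with GENCODE M4 genes per the deposited notes. Whether counting used strand is likewise not given.

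Spike-ins were removed and TPM rescaled to 1000000. Symbols, coordinates (GRCm38) and transcript sequences came from GENCODE M21: 42462 identifiers matched (98.0%), 884 did not, and all 17 member transcripts had the length the tables list. Promoters are RefSeq's. Effective lengths lay 99 nt under lengths, hence the window of 100 nt. Coding sequences and promoters were aligned with MAFFT 7.526. Counts of genes used a mean expected count of at least 10, and ratios used no pseudocount. TMM (edgeR 4.0.16) and DESeq2 1.42.0 size factors, from rounded expected counts, served only as alternative scalings in R 4.3.3. The labels give 2 samples; their counts differed beyond counting noise (chi-square of 1870.5 per degree of freedom). This shows that the tables are not copies of a single library and does not separate animals from amplifications. Only the 2-fold calls were tried on simulated counts. These held counting noise alone, which the libraries here exceed, so the trial does not show how reliable the calls are in these data. Python 3.11.15, numpy 2.4.6, pandas 2.3.3, biopython 1.88 and matplotlib 3.10.9 were used.

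Members, lists and comparisons were chosen with earlier results of these data known. All 9 members are named, each transcript of at least 5% of its gene, up to 6 leading genes per list, the known targets Elane, Prtn3, Ctsg, F10, F11 and Proz, and the genes beside the Serpina1 sum in rank; Gm8893, the 5 abundant genes lower in pup 3, Canx, and cluster or marker genes at 0 were named after their values were seen.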

Additional observations from a re-analysis of the deposited data

How the results depend on the processing

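Levels were recomputed 66 times (11 levels under 6 alternatives each), and 58 moved by less than the SD between libraries. That SD is a loose yardstick where the livers differed widely: for the Serpina1 sum it was 14051 on a mean of 25118 TPM. The count of 58 therefore does not show that levels were robust, and all moves past the SD were in Serpina3 levels. The Serpina3 sum, 1945 TPM, became 2880 as CPM, 1826 with spike-ins kept and 2078 over protein-coding genes only. Serpina3k gave 1318, 797 and 907 under the same settings, and as CPM Serpina3m gave 542 and Serpina3n 1020. CPM leaves out the length correction. With each library alone the Serpina1 sum ranged from 15182 to 35053 TPM, the Serpina3 sum from 1905 to 1984, Serpina10 from 35.9 to 65.9 and the share of all 9 genes from 1.72% to 3.71%. TMM factors moved every log2 ratio by -0.26, DESeq2 size factors by -0.26 and spike-in totals by 0.20. The log2 ratio of the Serpina1 sum ranged from -1.47 to -1.004, and each Serpina1 copy was lower in pup 3 under all of these; these ratio alternatives were chosen after seeing the data. The count of 2-fold members was 5 lower with TMM and with DESeq2, 3 lower and 1 higher (Serpina10) as CPM, and 2 lower and 1 higher (Serpina10) with spike-in totals. All 9 members stayed at 1 TPM or more with pup 1 thinned to the depth of pup 3. No paired analysis was possible because the labels give 1 group only. In 2 libraries of 13 pg each, animal, capture and amplification cannot be told apart.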

Other observations

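Genes of the acute phase, the liver response to inflammation to which the Serpina3 family belongs, were partly present. Of 17 listed genes 12 were at 1 TPM or more in both livers (beside 43.7% of the 8120 genes with 10 or more mean expected counts) and 5 in neither, namely Saa1, Saa2, Saa3, Orm1 and Orm2, all at 0 counts in both. The fibrinogen chains led, with 9051 and 5843 TPM for Fgg, 6318 and 6221 TPM for Fga and 7199 and 5155 TPM for Fgb. Hp (haptoglobin) had 4297 and 3952 TPM, and Apcs (serum amyloid P) had 3262 and 3156 TPM. Mt1, an intracellular metallothionein, had 860 and 1189 TPM. The list's median log2 ratio of pup 3 over pup 1 was -0.08, against -1.21 for the Serpina1 sum and -0.06 for the Serpina3 sum. Of the 12 genes, 1 was at least 2-fold lower in pup 3 and 1 at least 2-fold higher. The shares of the 8120 genes were 38.5% and 36%, but these include genes detected in 1 library only. The lower gene was Lcn2, lipocalin-2, with 596 and 112 TPM. The higher was Hamp, the iron hormone hepcidin, with 43.2 and 142 TPM. Both were named after their values were seen.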
